A study of Mus musculus with 6 samples.

Results

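The Adamts genes encode secreted zinc metalloproteases that cut proteins of the extracellular matrix. The 10 genes described here were chosen by symbol: Adamts1, Adamts2, Adamts4, Adamts5, Adamts6, Adamts7, Adamts9, Adamts10, Adamts12 and Adamts15, out of 24938 genes listed. All 10 were found, 1 Ensembl gene each. RNA came from NIH3T3 cells, an established line of mouse embryonic fibroblasts. There were 3 control libraries from cells with the genotype wild type and 3 libraries from cells with overexpression of F-CircAE, a circular RNA related to the leukaemia fusion AML1-ETO. The fusion joins RUNX1 to RUNX1T1, and a circular RNA is a transcript with joined ends. The single comparison of the design asks how overexpression of this RNA alters the transcriptome. The titles of the wild type libraries begin with V, whose meaning the labels do not give, so whether these cells carried an empty vector is not known here. If they did not, the procedure and the circular RNA cannot be told apart as sources of a difference. How long the RNA was expressed, and whether the cells were a clone, is not given in the sources used here. Levels of F-CircAE were not analysed here.

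An Adamts protease is made as an inactive precursor whose prodomain is removed by furin-like convertases. Its metalloprotease domain holds a zinc ion bound by histidines, and thrombospondin repeats and other domains behind it position the enzyme on its substrate and in the matrix. The family is usually divided by substrate. Adamts4 and Adamts5 are the classical aggrecanases, and Adamts1, Adamts9 and Adamts15 also cut the large hyaluronan-binding proteoglycans such as versican. Adamts2 removes the amino-terminal propeptide of fibrillar procollagens, a step of collagen fibril formation in fibroblasts. Adamts7 and Adamts12 bind and cut cartilage oligomeric matrix protein, and Adamts10 and its close relative Adamts6 are linked to fibrillin microfibrils.

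The stretch of coding sequence for the zinc-binding motif is given for each member. It was read from the GENCODE M21 transcripts (mm10) in the reading frame of a protein-coding transcript of each gene, and it occurred once in each of the 10. The 36 bases are given 5′ to 3′. Capitals mark the codons of the 3 zinc-binding histidines and of the catalytic glutamate. The search required these codons and a closing GAC or GAT, so their presence in every member was set in advance. Their fixed letters also add to every identity given below.
Adamts1: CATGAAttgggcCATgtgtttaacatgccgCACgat
Adamts4: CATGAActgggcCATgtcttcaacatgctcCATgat
Adamts5: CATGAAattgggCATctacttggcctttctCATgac
Adamts9: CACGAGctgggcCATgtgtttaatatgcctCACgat
Adamts15: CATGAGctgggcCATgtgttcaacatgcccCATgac
Adamts2: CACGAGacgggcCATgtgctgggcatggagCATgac
Adamts7: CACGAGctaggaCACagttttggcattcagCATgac
Adamts12: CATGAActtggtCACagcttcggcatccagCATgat
Adamts6: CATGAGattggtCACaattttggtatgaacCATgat
Adamts10: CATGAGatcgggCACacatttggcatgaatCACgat
Adamts4 and Adamts15 were the most alike, with 32 of 36 bases identical, and Adamts1 and Adamts9 had 31. The fewest, 20, were shared by Adamts5 and Adamts9 and by Adamts9 and Adamts12. In every member an intron interrupts this stretch, after base 10 in Adamts1, Adamts4, Adamts5 and Adamts15 and after base 17 in Adamts2, Adamts6, Adamts7, Adamts9, Adamts10 and Adamts12. The stretch starts in exon 3 of the Adamts1 transcript (chr16:85799188-85799545, minus strand, with an intron of 322 bases inside) and in exon 2 of the Adamts5 transcript (chr16:85878012-85887826, minus strand, with an intron of 9779 bases). In Adamts2 it starts in exon 7 (chr11:50775403-50776137, plus strand) and in Adamts10 in exon 9 (chr17:33538157-33538282, plus strand), where the intron has 90 bases.

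No 50-base stretch of a member's transcripts occurred in the transcripts of another member. This limits exact identity only, not likeness with mismatches. Some sequence is shared with other genes. Exons of Adamts7 overlap those of Tbc1d2b on the opposite strand by 122 bases. Exons of Adamts9 overlap A730049H05Rik by 1381 bases and Gm15737 by 424 bases, and neither of these is among the genes listed. The sources used here do not say whether reads were assigned by strand, so reads in these overlaps are uncertain.

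Expression is given in FPKM, fragments scaled to gene length and to the library total as deposited, so levels of different genes can be compared per length. The libraries hold 16969915 to 21843880 reads assigned to genes, as recovered from the steps of the FPKM values. The cells had the markers of their label: all 10 fibroblast markers were above 1 FPKM in at least 3 libraries, with a summed level of 1670 to 1970 FPKM in control and 1550 to 1850 FPKM with overexpression (4 of them, Col1a1, Col1a2, Col3a1 and Fbn1, are also among the listed matrix partners of the family). Of 5 listed haematopoietic markers Cd68 alone passed that level (list sum 4.38 to 6.09 FPKM in control, 4.75 to 6.45 FPKM with overexpression), while Ptprc and Itgam were under 0.1 FPKM in every library. None of 4 listed endothelial markers passed it, and 2 of 5 epithelial markers did, Cdh1 and Krt14, with list sums of 5.95 to 8.81 FPKM in control and 7.09 to 8.12 FPKM with overexpression. Smooth muscle and mural markers summed to 24.4 to 24.9 FPKM in control and 19.4 to 25.3 FPKM with overexpression, with Acta2 and Des above the level among 4 listed and Myh11 under 0.1 FPKM throughout. Cartilage markers summed to 27.9 to 34.4 FPKM in control and 29.1 to 29.9 FPKM with overexpression, nearly all of it Sox9, with Acan and Col9a1 under 0.1 FPKM. The part of these other markers in the results was not tested.

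The libraries did not form uniform groups. Control replicates 1 and 2 were far more alike than any of the other 14 pairs, with a chi-square per gene of 1.46 (counting error alone gives 1) against 5.15 to 25.1. Over the Adamts genes tested, the median difference between these 2 controls was 0.018 on the log2 scale, against 0.055 to 0.313 in the other pairs. Separate cultures are not stated for the replicates in the labels, and p-values therefore measure only a spread between libraries that may be technical. If control replicates 1 and 2 share a culture or an RNA, n = 3 overstates the number of independent controls.

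Adamts5 was highest in every library, at 14.2 to 19.5 FPKM. Adamts1 (mean 12.6 FPKM over the 6 libraries), Adamts2 (11.7 FPKM), Adamts7 (10.6 FPKM) and Adamts10 (10.6 FPKM) followed, and their order changed from library to library: Adamts1 exceeded Adamts2 in 4 of 6, Adamts2 exceeded Adamts7 in 5, and Adamts7 exceeded Adamts10 in 4. Adamts12 lay below Adamts10 in all 6 libraries, at 7.30 to 8.79 FPKM. Adamts6 at 1.52 to 1.97 FPKM and Adamts4 at 0.913 to 1.67 FPKM were far lower, with Adamts6 above Adamts4 in every library. Adamts15 and Adamts9 were near the limit of detection. Because genes above 1 FPKM in at least 3 libraries were tested (12222, or 49% of those listed), 8 of the 10 members entered the test and these last genes did not.

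**Figure D1:**
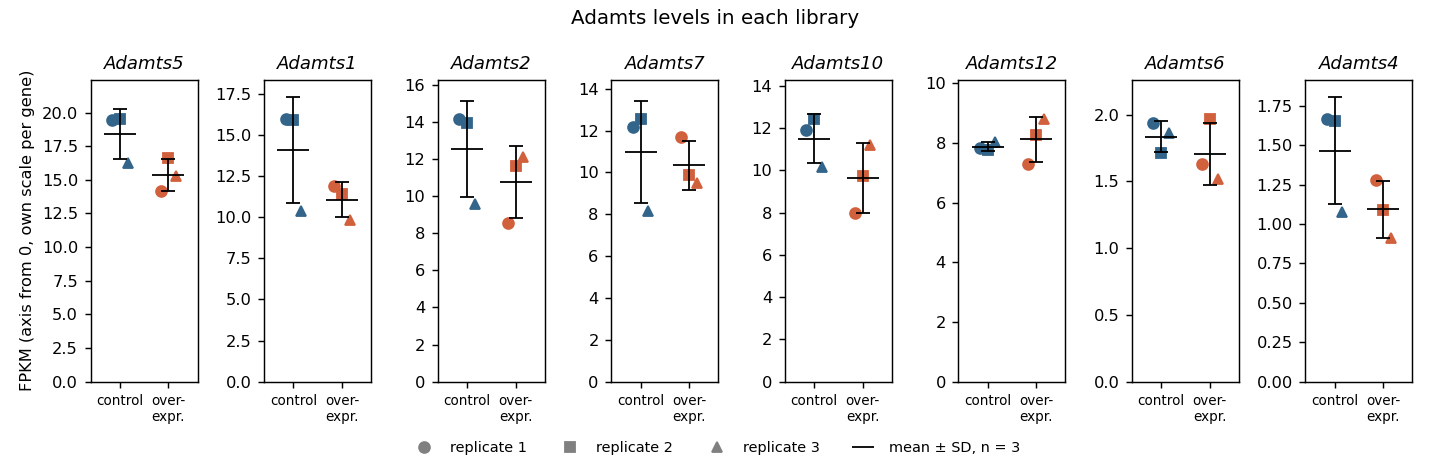
FPKM of the 8 tested Adamts genes in each library (symbols give the replicate number), with the mean and SD of 3 libraries per group. Every axis starts at 0 and has its own scale. In Adamts1, Adamts2, Adamts4, Adamts5, Adamts7 and Adamts10 control replicates 1 and 2 sit above control replicate 3 and above all 3 overexpression libraries.

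None of the 8 tested members passed an adjusted p of 0.05 for a difference between the groups (limma on log2(FPKM + 1), Benjamini-Hochberg over all 12222 genes, smallest member value 0.842). Among all tested genes 0% passed as well, also with limma-voom on recovered reads. At an unadjusted p below 0.05 there was 1 member, Adamts5, and it was lower, beside 5.17% of all tested genes in either direction (632) and 2.31% lower. The estimates of 7 of the 8 members were below 0, beside 46.8% of all tested genes, and their median was -0.22 beside 0.01 for all tested genes. With every library rescaled to the same FPKM sum the estimate of Adamts12 was below 0 too (-0.021). The groups overlapped in all 8 members, whereas they did not overlap in 11.5% of all tested genes (4.69% with overexpression lower). RNA of cultured cells is measured in bulk, so fewer cells expressing a gene and less RNA per cell cannot be told apart.

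Adamts1, a protease of large proteoglycans, lies on chromosome 16 from 85793827 to 85803113 (ENSMUSG00000022893, mm10). Control replicates 1, 2 and 3 held 16.0, 15.9 and 10.3 FPKM, and overexpression replicates 1, 2 and 3 held 11.9, 11.4 and 9.85 FPKM. Control replicates 1 and 2 stood above every other library, while control replicate 3 lay between overexpression replicates 2 and 3. The means were 14.1 ± 3.22 and 11.05 ± 1.06 FPKM (SD, n = 3), the log2 fold change was -0.30 (95% interval -0.69 to 0.09) and the limma adjusted p was 0.842.

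Adamts5, the major aggrecanase of mouse cartilage, is the neighbour of Adamts1 on chromosome 16 (85856173 to 85901828, ENSMUSG00000022894), 53059 bases away with no protein-coding gene between them and on the same strand. Its levels were 19.5, 19.5 and 16.3 FPKM in control and 14.2, 16.6 and 15.3 FPKM with overexpression. The groups overlapped by 1 library on each side, control replicate 3 and overexpression replicate 2. Means of 18.4 ± 1.85 and 15.4 ± 1.22 FPKM (SD, n = 3) gave a log2 fold change of -0.25, with a 95% interval of -0.46 to -0.03. This was the member whose interval excluded 0, and it did not pass over all genes (limma adjusted p = 0.842).

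Adamts4, the other classical aggrecanase, had a far lower level than Adamts5. It lies on chromosome 1 (171250421 to 171260637, ENSMUSG00000006403). Its values were 1.67, 1.65 and 1.07 FPKM in control and 1.28, 1.09 and 0.913 FPKM with overexpression, resting on 433 and 299 reads in all. Control replicate 3 again lay among the overexpression libraries. The log2 fold change was -0.23 (95% interval -0.56 to 0.10, limma adjusted p = 0.843). At this low level the size depended on the scale: it was -0.38 with a pseudocount of 0.1, -0.084 with a pseudocount of 5 and -0.42 with limma-voom on recovered reads, and it was -0.35 without control replicate 3. The ratio of Adamts5 to Adamts4 was 11.7, 11.8 and 15.1 in control and 11.1, 15.2 and 16.7 with overexpression, so the ranges of the groups overlapped.

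Adamts9 and Adamts15, which also cut versican, were barely detected. Adamts9 (chromosome 6, 92772699 to 92943492, ENSMUSG00000030022) had 1, 2 and 2 reads in control and 0, 2 and 1 with overexpression. Adamts15 (chromosome 9, 30899155 to 30922452, ENSMUSG00000033453) had 9, 3 and 2 reads in control and 0, 6 and 8 with overexpression. At such counts no difference between groups was detectable, and a count of 0 allows up to 3 reads. This limit covers counting error only, since reads of amplified libraries are not independent molecules.

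Promoter sequence was at hand for 4 of the 10 members, Adamts1, Adamts2, Adamts9 and Adamts12 (RefSeq, GRCm38.p6), and the windows of Adamts1, among the most abundant members, and of Adamts9, close to 0 reads, are shown for contrast. Each holds the 250 bases before the annotated start, 5′ to 3′ on the gene's strand. Capitals mark matches on either strand to 5 motifs. The GC box was searched as GGGCGG. The TATA box was searched as TATAAA. The site of AP-1 factors was searched as TGAGTCA. The core bound by RUNX factors was searched as TGTGGT. The cyclic AMP response element was searched as TGACGTCA. In these windows no match overlapped another.
Adamts1: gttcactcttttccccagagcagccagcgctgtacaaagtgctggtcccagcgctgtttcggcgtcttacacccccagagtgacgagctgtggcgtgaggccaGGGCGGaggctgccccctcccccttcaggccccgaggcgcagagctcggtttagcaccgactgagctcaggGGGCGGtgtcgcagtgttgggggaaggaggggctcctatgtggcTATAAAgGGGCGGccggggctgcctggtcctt
Adamts9: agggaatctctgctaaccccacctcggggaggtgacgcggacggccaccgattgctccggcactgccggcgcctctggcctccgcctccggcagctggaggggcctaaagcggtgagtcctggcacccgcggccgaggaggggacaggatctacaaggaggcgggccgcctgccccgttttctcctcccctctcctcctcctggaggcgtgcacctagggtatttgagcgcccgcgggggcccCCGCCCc
The Adamts1 window (chr16:85803114-85803363, minus strand) held 3 GC boxes and a TATA box that begins 32 bases before the start. The Adamts9 window (chr6:92943535-92943784, minus strand) held 1 GC box. Adamts2 had 5 GC boxes and Adamts12 none of the motifs. Of all 32851 promoter windows, 32.7% held the GC box, 12.4% the TATA box, 4.46% the AP-1 letters, 14.0% the RUNX core and 1.55% the cyclic AMP element. None of the 4 windows held the AP-1, RUNX or cyclic AMP letters, which says only that they are not in these 250 bases. CpG pairs numbered 15 in the Adamts1 window, 34 in Adamts2, 22 in Adamts9 and 6 in Adamts12, with a median of 6 over all windows. CpG number therefore did not follow the level, since Adamts9 had more than Adamts1 or Adamts12.

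Adamts2, the procollagen amino-propeptidase, lies on chromosome 11 (50602084 to 50807573, ENSMUSG00000036545). Its level was 14.1, 13.9 and 9.56 FPKM in control and 8.53, 11.6 and 12.1 FPKM with overexpression. Control replicate 3 fell inside the overexpression range here too, and overexpression replicate 1 was the lowest of the 6. The means were 12.6 ± 2.59 and 10.7 ± 1.94 FPKM (SD, n = 3), and the log2 fold change was -0.20 (95% interval -0.62 to 0.22, limma adjusted p = 0.850). It was -0.11 without control replicate 1, -0.12 without control replicate 2, -0.37 without control replicate 3 and -0.056 without overexpression replicate 1. Adamts14, the other procollagen amino-propeptidase measured, was present at 7.03, 7.11 and 6.23 FPKM in control and 7.11, 5.48 and 6.78 FPKM with overexpression, with a log2 fold change of -0.07. The ratio of Adamts2 to Adamts14 ran from 1.53 to 2.01 in control and from 1.20 to 2.12 with overexpression.

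Adamts7, a protease of cartilage oligomeric matrix protein that is also known from vascular smooth muscle, lies on chromosome 9 (90163069 to 90208071, ENSMUSG00000032363). It had 12.2, 12.5 and 8.15 FPKM in control and 11.7, 9.87 and 9.47 FPKM with overexpression. Control replicate 3 was the lowest of all 6 libraries, so the controls enclosed the overexpression values. The log2 fold change was -0.06 (95% interval -0.44 to 0.32, limma adjusted p = 0.946), and its sign depended on the controls: it was 0.022 without control replicate 1, 0.042 without control replicate 2 and -0.24 without control replicate 3. It was -0.14, -0.031 and -0.0038 without overexpression replicates 1, 2 and 3.

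Adamts12, the closest relative of Adamts7, did not share its pattern. It lies on chromosome 15 (11064790 to 11349231, ENSMUSG00000047497). Levels were 7.84, 7.74 and 8.04 FPKM in control and 7.30, 8.27 and 8.79 FPKM with overexpression. The 3 controls were close together, at 7.88 ± 0.15 FPKM (SD, n = 3), and the overexpression libraries lay on both sides of them, at 8.12 ± 0.76 FPKM. The log2 fold change of 0.04 had the narrowest interval of the family, -0.14 to 0.21 (limma adjusted p = 0.928). It was 0.10, 0.023 and -0.016 without overexpression replicates 1, 2 and 3. Adamts7 exceeded Adamts12 by a factor of 1.55 and 1.62 in control replicates 1 and 2, while in control replicate 3 the levels were nearly equal (8.15 and 8.04 FPKM). Their shared substrate gene Comp was at 0.073 to 0.251 FPKM over the 6 libraries and was not tested.

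Adamts10, mutated in the connective tissue disorder Weill-Marchesani syndrome, lies on chromosome 17 (33524204 to 33553782, ENSMUSG00000024299). It had 11.9, 12.4 and 10.2 FPKM in control and 7.96, 9.73 and 11.2 FPKM with overexpression. Overexpression replicate 1 was the lowest library, and overexpression replicate 3 lay above control replicate 3. The log2 fold change was -0.24 (95% interval -0.54 to 0.06, limma adjusted p = 0.842), and it was -0.12 without overexpression replicate 1.

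Its relative Adamts6 lies on chromosome 13 (104287835 to 104496695, ENSMUSG00000046169). Values were 1.94, 1.71 and 1.86 FPKM in control and 1.63, 1.97 and 1.52 FPKM with overexpression, from 133 to 204 reads per library. The highest and the lowest library were both overexpression libraries, replicates 2 and 3. The log2 fold change was -0.07 (95% interval -0.31 to 0.17, limma adjusted p = 0.895). It was -0.045 without control replicate 1, -0.14 without overexpression replicate 2 and -0.022 without overexpression replicate 3.

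**Figure D2:**
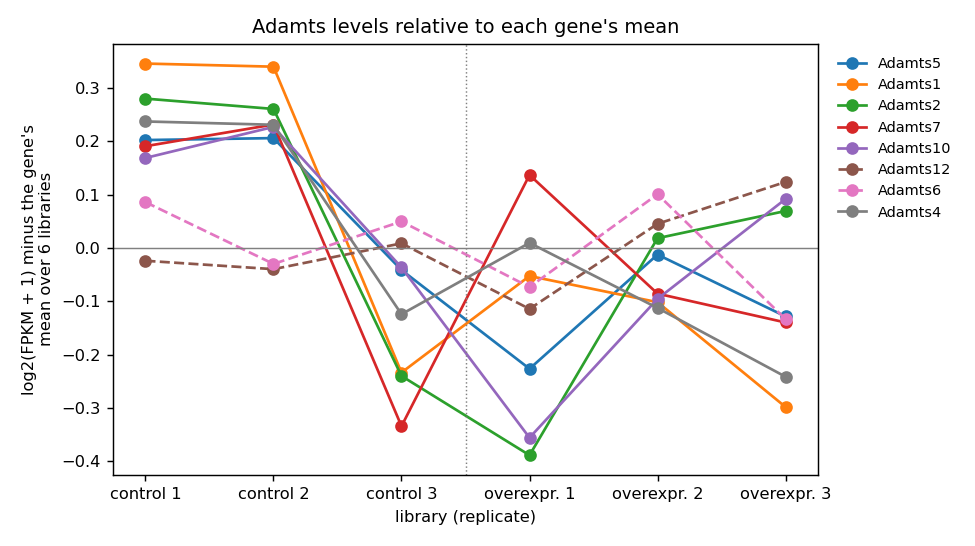
Level of each tested Adamts gene in each library as log2(FPKM + 1) minus that gene's mean over 6 libraries; lines only join the points of a gene, and replicates have no order. The 6 genes with solid lines are highest in control replicates 1 and 2, while Adamts6 and Adamts12 (dashed) are not.

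The levels of the members also differed between libraries of the same group. Control replicates 1 and 2 lay above all 3 overexpression libraries in 6 of 8 members, the exceptions being Adamts6 and Adamts12, beside 17.9% of all tested genes. In the same 6 members control replicate 3 lay below control replicates 1 and 2, beside 41.2% of all tested genes, and in 7 of 8 it lay within the overexpression range, beside 51.7%. These patterns were chosen after the values were seen. The mean of control replicates 1 and 2 was 1.54 times control replicate 3 for Adamts1, 1.47 times for Adamts2, 1.54 times for Adamts4 and 1.52 times for Adamts7. It was 1.20 times for Adamts5 and 1.19 times for Adamts10, and 0.978 and 0.969 times for Adamts6 and Adamts12. For Adamts1, Adamts2, Adamts4 and Adamts7 the difference of control replicate 3 from the other controls (-0.58, -0.51, -0.36 and -0.55 on the log2 scale) was larger in size than the difference between the groups. In Adamts5, Adamts10 and Adamts12 both differences were of nearly the same size, and in Adamts6 that of control replicate 3 was smaller. Control replicate 3 enters both differences, so they are not independent.

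**Figure D3:**
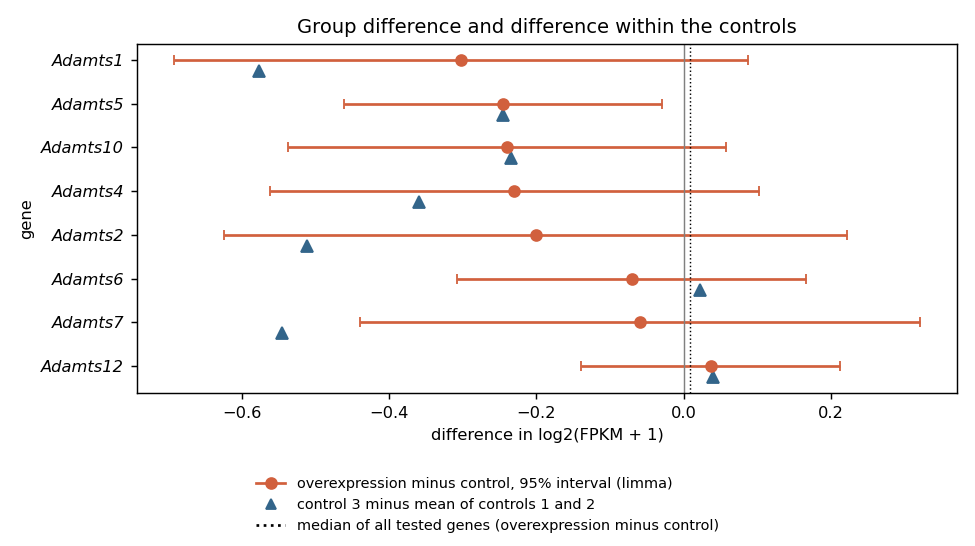
Difference in log2(FPKM + 1) between overexpression and control with its 95% interval (circles), beside the difference of control replicate 3 from the mean of control replicates 1 and 2 (triangles), for the 8 tested genes. The triangles of Adamts1, Adamts2, Adamts4 and Adamts7 lie further from 0 than their circles, those of Adamts5, Adamts10 and Adamts12 lie close to them, and the dotted line is the median of all tested genes, 0.01.

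Overexpression libraries also differed among themselves, and in opposite directions in different members. In overexpression replicate 1, Adamts1, Adamts4 and Adamts7 were at their highest within the group, whereas Adamts2, Adamts5, Adamts10 and Adamts12 were at their lowest of all 6 libraries. Overexpression replicate 3 had the lowest level of Adamts1, Adamts4 and Adamts6. Summed over the 10 members, the controls had 85.1, 85.5 and 65.5 FPKM and the overexpression libraries 64.4, 70.7 and 69.2 FPKM. The sum of control replicate 3 thus lay between those of overexpression replicates 1 and 3. Adamts5 made up 22.8% to 24.9% of this sum in control and 22.0% to 23.5% with overexpression. The share of Adamts7 ran from 12.4% to 14.7% in control and from 13.7% to 18.1% with overexpression.

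**Figure D4:**
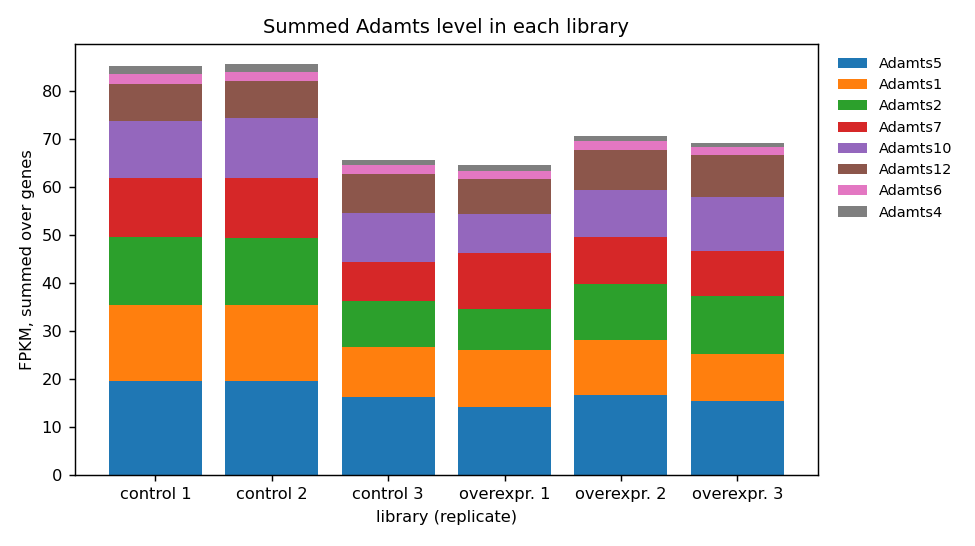
FPKM of the tested Adamts genes stacked in each library, from 0. Control replicates 1 and 2 reach about 85 FPKM (85.1 and 85.5 with all 10 genes), and the other 4 libraries reach 64.4 to 70.7.

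The calls depended on how the libraries were weighted. Without control replicate 3, the log2 difference of Adamts1 was -0.49 (limma adjusted p = 0.175). In that setting 5 of 8 members were lower at an unadjusted p below 0.05, beside 6.59% of all tested genes. None of the members passed after adjustment, beside 0.0164% of all tested genes. The only controls left there are replicates 1 and 2, whose likeness makes the control spread small. Both lay above all overexpression libraries in 6 of 8 members, as described above, so this count is no independent support. With limma array weights, which gave control replicate 3 a weight of 0.236 and control replicates 1 and 2 weights of 2.16 and 2.57, and overexpression replicates 1, 2 and 3 weights of 0.278, 4.64 and 0.593, 5 of 8 members passed and were lower with overexpression, beside 7.28% of all tested genes lower and 18.3% in either direction. They were Adamts1, Adamts4, Adamts5, Adamts7 and Adamts10, at limma adjusted p from 0.022 to 0.043. Once control replicates 1 and 2 were averaged to 1 library, none of the 8 passed with array weights (limma adjusted p from 0.913 to 0.994). Among all tested genes 0 of 12222 passed in that setting as well. The median of the members was then -0.07.

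The remaining genes of the family were mostly silent in these cells. Of 9 other Adamts proteases, 7 were listed and Adamts14 alone was tested. Adamts13, the protease of von Willebrand factor, stood at 0.337, 0.418 and 0.329 FPKM in control and 0.192, 0.208 and 0.261 FPKM with overexpression. Its groups did not overlap at this low level, with 16 to 44 reads per library, and it was not tested. Among tested genes 11.5% did not overlap (4.69% with overexpression lower). The share among untested genes was not computed. Adamts8, which lies 20109 bases from Adamts15 on the opposite strand, had 7, 7 and 2 reads in control and 16, 0 and 0 with overexpression. Adamts16 had 0 to 2 reads, Adamts17 0 to 4, Adamts18 0 to 1 and Adamts20 3 to 5 reads per library. Adamts3 and Adamts19 were not analysed here. Of 7 Adamts-like genes, which lack the protease domain, 2 were tested and none passed. These were Adamtsl4 at 24.6 to 29.4 FPKM and Adamtsl5 at 20.7 to 26.5 FPKM, named after their values were seen.

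Substrates of the family were present unevenly. Of 7 listed hyalectans and link proteins 2 were tested and none passed. Versican (Vcan), the large proteoglycan of fibroblast matrix, had 58.1, 58.2 and 67.6 FPKM in control and 71.3, 66.7 and 65.1 FPKM with overexpression. Control replicates 1 and 2 were the lowest of the 6 libraries for Vcan and the highest for Adamts1. Within overexpression both genes were highest in replicate 1 and lowest in replicate 3. The log2 fold change of Vcan was 0.14 (95% interval -0.05 to 0.33, limma adjusted p = 0.842). Vcan stood at 1.56 and 1.57 times the summed level of Adamts1, Adamts4 and Adamts5 in control replicates 1 and 2 and at 2.44 times in control replicate 3, beside 2.29 to 2.61 times with overexpression. Aggrecan (Acan), the cartilage substrate for which the aggrecanases are named, had at most 5 reads in a library.

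Of the 7 tested genes of procollagens and their processing, none passed. Estimates of 6 were below 0, beside 46.8% of all tested genes, and the median of the 7 was -0.16. Col1a1, the main chain of the substrate of Adamts2, had 607, 602 and 492 FPKM in control and 444, 575 and 525 FPKM with overexpression (log2 fold change -0.14). Col1a2 had 548, 553 and 405 FPKM and 409, 489 and 444 FPKM (-0.16). Col1a1 and Col1a2 were both highest in control replicates 1 and 2. These controls lay above all overexpression libraries in 6 of the 7 tested genes, beside 17.9% of all tested genes. Col3a1, which encodes type III collagen, had 148, 146 and 85.6 FPKM in control and 48.8, 94.6 and 108 FPKM with overexpression, and its log2 fold change of -0.62 had an interval of -1.43 to 0.18. Col5a1 is a chain of type V collagen, and its groups did not overlap, at 85.6, 85.2 and 74.6 against 71.6, 71.0 and 72.8 FPKM (limma adjusted p = 0.842). Pcolce, named after its values were seen, did not overlap either, at 129, 128 and 114 against 104, 110 and 112 FPKM (limma adjusted p = 0.842). They were 2 of the 7, both lower with overexpression. Of all tested genes 4.69% did not overlap with overexpression lower, and 11.5% in either direction.

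Of the other matrix partners, all 7 tested genes had estimates below 0, beside 46.8% of all tested genes. None of the 7 passed, and their median was -0.21. Fibronectin (Fn1), whose fragments bind Adamts4, had 541, 537 and 319 FPKM in control and 243, 345 and 343 FPKM with overexpression (log2 fold change -0.56). Decorin (Dcn) and biglycan (Bgn) are small proteoglycans that aggrecanases can cut. Dcn had 57.2, 58.1 and 26.4 FPKM in control and 14.3, 25.5 and 32.6 FPKM with overexpression. The log2 fold change of Dcn was -0.93 (95% interval -1.85 to -0.01, limma adjusted p = 0.842). Bgn had 161, 162 and 113 FPKM in control and 110, 129 and 134 FPKM with overexpression. Progranulin (Grn) binds Adamts7 and Adamts12 and had 94.6, 92.7 and 69.1 FPKM and 70.8, 88.7 and 85.8 FPKM. Control replicate 3 lay below the other controls in all 7 (41.2% of all tested genes). It lay within the overexpression range in 4, near the share of 51.7% over all tested genes. Control replicates 1 and 2 lay above all overexpression libraries in 6, beside 17.9% of all tested genes. The exception was Nid1, with 6.52 and 6.34 FPKM in these controls and 7.27 FPKM in overexpression replicate 1.

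Of 6 tested inhibitors and clearance receptors none passed and 4 had estimates below 0, beside 46.8% of all tested genes. Timp3, the tissue inhibitor that blocks aggrecanases most strongly, had 58.7, 58.3 and 41.8 FPKM in control and 29.2, 48.1 and 46.4 FPKM with overexpression, a log2 fold change of -0.37 (95% interval -0.89 to 0.15). Timp1 was named after its values were seen, since its groups did not overlap: 59.0, 63.5 and 60.8 FPKM in control and 74.8, 70.2 and 64.9 FPKM with overexpression (log2 fold change 0.19, limma adjusted p = 0.842, with 11.5% of all tested genes not overlapping). Timp2, at 386 to 472 FPKM the most abundant inhibitor of the list, had a log2 fold change of 0.02. Lrp1, the endocytic receptor that clears Adamts4 and Adamts5, had 96.7, 97.4 and 75.5 FPKM and 73.0, 83.5 and 81.6 FPKM, and Sdc4, a cell surface proteoglycan that binds Adamts5, had 56.3, 57.5 and 41.7 FPKM and 46.5, 42.3 and 43.8 FPKM. Of 2 tested convertases none passed. Furin, which removes the prodomain, had 9.60, 10.1 and 7.32 FPKM in control and 8.32, 8.45 and 7.61 FPKM with overexpression. Pofut2 and B3glct, which add sugars to thrombospondin repeats and so aid secretion, had log2 fold changes of -0.05 and -0.02. Neither passed, and control replicates 1 and 2 were above control replicate 3 in both, beside 41.2% of all tested genes.

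**Figure D5:**
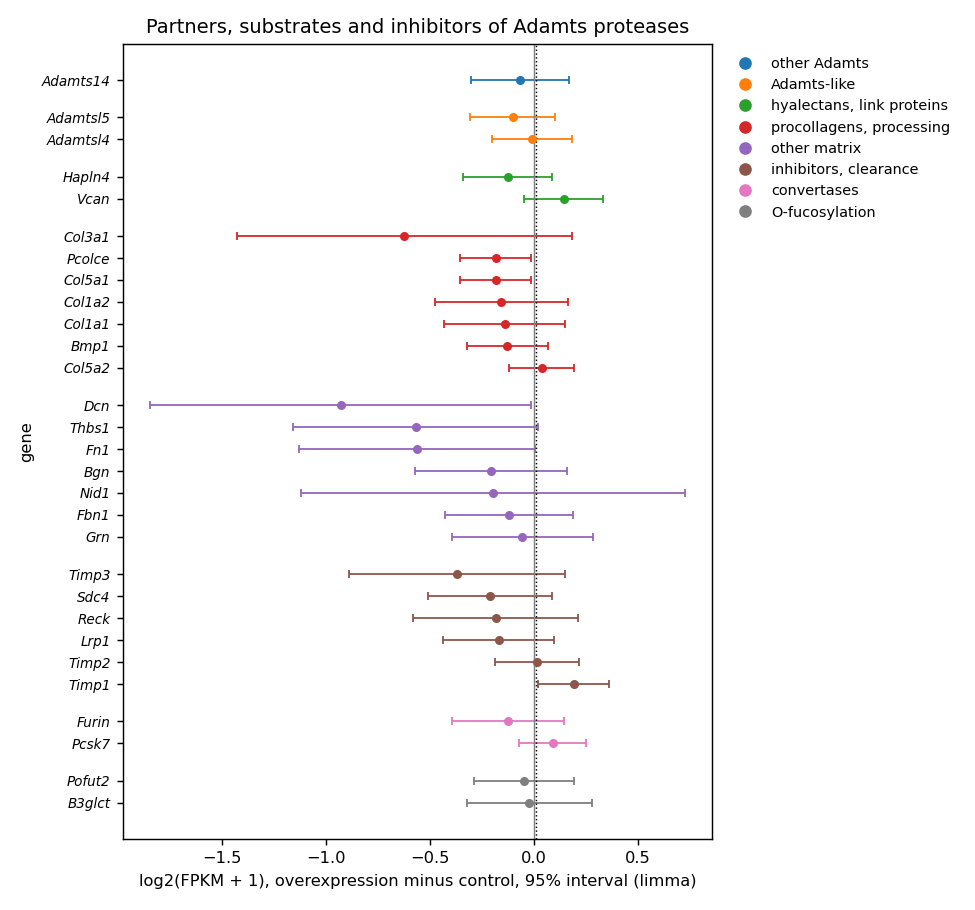
Difference in log2(FPKM + 1) between overexpression and control with its 95% interval (limma) for the 29 tested partner genes, coloured by list; the dotted line is the median of all tested genes, 0.01. None passed after adjustment, and Vcan and Timp1 lie above 0 while most matrix genes lie below.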

How the data were processed

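FPKM values of 6 libraries were deposited by the authors, per the file headers, 1 value per Ensembl gene. Per the submitters' processing notes the build was mm10. The aligner, counter and strand use: not given in the sources used here. Per the labels' protocols, paired-end reads of 125 or 150 bp were made. Symbols and coordinates came from GENCODE M21. Groups were taken from the genotype, and replicate numbers from the title.

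Genes above 1 FPKM in at least 3 libraries were tested with limma 3.58.1 (R 4.3.3) on log2(FPKM + 1), with trend and robust moderation, no term but group, and Benjamini-Hochberg adjustment over all tested genes at 0.05. Fold changes on this scale understate those of low genes. The fit was also run on simulated data with independent libraries. Those data lack the likeness of control replicates 1 and 2, so they do not test the fit under it. Reads were recovered where FPKM times gene length gave whole numbers (tolerance 0.01 reads and a relative 1e-07) in each of 6 libraries: the annotated length did so for 19832 genes (79.5%) and a length was searched for in 5106, among them Adamts5, Adamts6, Adamts10, Adamts12 and Adamts15, so their reads rest on that length. Reads were used for depth, the likeness of libraries and 1 alternative. Whole numbers at a searched length are no independent check.

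The members and lists were chosen with earlier results of these data known. Named were all members and other Adamts proteases, and of each other list up to 4 genes of at least 1 FPKM that act with a member, by level. Some genes were named outside this rule, among them Comp, Acan, Nid1, Pcolce, Timp1, Adamtsl4 and Adamtsl5. A marker gene and an exon overlap are not reported here.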

Additional observations from a re-analysis of the deposited data

How the results depend on the processing

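The count of changed genes, 0 of 12222, was also 0 with pseudocounts of 0.1 and 5, without a filter, with a filter at 5 FPKM, with the replicate block, with control replicates 1 and 2 averaged, after both rescalings and with limma-voom on recovered reads. Leaving out 1 library gave 0 to 2 genes, namely 2 without control replicate 3 and 1 without overexpression replicate 1, and none of them is a member. Array weights gave 2241, and array weights with control replicates 1 and 2 averaged, added after the data were seen, gave 0.

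The median log2 fold change of the tested members was -0.22 and ran from -0.32 without control replicate 3 to -0.13 without overexpression replicate 1 when 1 library was left out. It was -0.069 with array weights and control replicates 1 and 2 averaged. Of 134 values of single members under the alternatives, 122 kept their sign and stayed short of the threshold, 5 passed it with array weights and 7 changed sign. Adamts6 was 0.043 with array weights and 0.022 with array weights and averaged controls. Adamts7 ran from -0.241 (without control replicate 3) to 0.042 when 1 library was left out, being above 0 without control replicate 1 (0.022) or 2 (0.042), and was 0.032 with these averaged. Adamts12 ran from -0.016 (without overexpression replicate 3) to 0.103 (without overexpression replicate 1) and was -0.021 at the same FPKM sum. The cause was not tested.

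The replicate block changed no call or direction and gave 0 genes (444 at an unadjusted p below 0.05, beside 632) and a median of -0.22. Deviations of same-numbered libraries from their group means correlated at -0.102, 0.083 and 0.0025, and those of other pairs at -0.126 to 0.0996. With 3 libraries per group and control replicates 1 and 2 so alike, these values cannot show whether the numbers pair the libraries. The planned count test of another kind was not run because the files hold FPKM. Adamts9 and Adamts15 are limited by depth. They were fitted only in the setting without a filter on low values, and those fold changes are not given here.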
